A study of Mus musculus with 3 samples.

Results

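The RNA of 7 fibroblast growth factor (FGF) ligands, Fgf3, Fgf4, Fgf5, Fgf8, Fgf10, Fgf15 and Fgf17, was followed in single cells of mouse embryos during gastrulation. The ligands were chosen by name, with earlier results of these data known. Counts of ligands set beside all genes therefore describe this set and are no independent support. The count tables list 32285 genes, of which 22 have an Fgf symbol. Cells came from untreated, normal embryos of the ARC strain at 3 gastrulation stages named by embryonic day, E7.0 and E7.25 with no region given and E7.5 with the posterior region only (called E7.5 posterior). Each group is 1 library of the 10x Genomics 3′ kit, in which every captured RNA molecule carries a random tag and is counted once as a unique molecular identifier (UMI). How many embryos were pooled in a library is not given in the sources used here.

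With 1 library per group, stage, litter and library cannot be told apart, and no test between groups was possible. Every interval below is a 95% interval for counting error only. Cells with at least 1000 detected genes and at most 10% mitochondrial UMIs were kept, which left 7941 cells at E7.0, 5194 at E7.25 and 8438 in E7.5 posterior. They held 108350108, 47672673 and 87940979 UMIs in the same order, with library medians between 8298 and 11295 UMIs per cell. From here, 3 values in a row give E7.0 first, E7.25 second and E7.5 posterior last. To compare cells of unequal depth, the 7327, 4685 and 7664 cells with at least 5000 UMIs were thinned at random to 5000 UMIs each, leaving out 614, 509 and 774 shallower cells. Pairs of libraries had 8, 14 and 22 cell barcodes in common. Cells with 5 or more of 8 visceral endoderm markers made up 10.8%, 17.8% and 5.56% of thinned cells, and 55, 223 and 8 cells had 2 or more of 5 extraembryonic ectoderm markers. The caudal epiblast markers were found together in 10.0% of E7.5 posterior cells and the anterior neural markers in 1.02%. Of the 67 marker genes over all lists, 66 had UMIs at E7.0 (Tbx4 had 0) and 67 in the other libraries.

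FGF ligands are secreted proteins that bind receptor tyrosine kinases on neighbouring cells and signal through the RAS and MAP kinase cascade, which switches on feedback genes such as Dusp6, Spry4 and the Etv4 and Etv5 transcription factors. In the gastrulating mouse embryo, Fgf8 and Fgf4 are made in the primitive streak, where FGF signalling is needed for cells to leave the streak and for mesoderm to be specified. Fgf5 is a classic marker of the epiblast, the epithelium that gives rise to all tissues of the fetus. Fgf15 encodes an endocrine-type ligand, and Fgf17 belongs to the same subfamily as Fgf8.

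The genes of Fgf3, Fgf4 and Fgf15 lie beside each other on chromosome 7. In the GRCm38 annotation (GENCODE M21), Fgf3 spans chr7:144838083-144844436, Fgf4 chr7:144847367-144865243 and Fgf15 chr7:144896531-144900953, all on the forward strand. Fgf5 lies at chr5:98254184-98277030, Fgf10 at chr13:118669791-118792115, Fgf8 at chr19:45736798-45742915 and Fgf17 at chr14:70636203-70642268, the last 2 on the reverse strand. Promoter windows from RefSeq (GRCm38.p6, 250 bases before to 50 after the start) were held for 4 ligands, Fgf3, Fgf4, Fgf5 and Fgf10, and those of Fgf3, Fgf4 and Fgf5 are printed here because the results turn on their contrast, Fgf3 and Fgf4 being higher and Fgf5 lower in cells with Mesp1 RNA. Each runs 5′ to 3′ on the forward strand, and capitals mark matches, on either strand, to 7 short motifs. The core promoter motifs searched were TATAAA, the box bound by the TBP protein, then GGGCGG, which binds zinc finger factors of the Sp family, and as the last of these CCAAT, bound by nuclear factor Y. The others were CTTTGA, which TCF and LEF proteins of the Wnt pathway bind, then GGTGTGA, bound by T-box proteins, then TGTTTAC, bound by forkhead proteins, and finally AGATAA, bound by the zinc finger family named after it.
Fgf3, chr7:144838362-144838661: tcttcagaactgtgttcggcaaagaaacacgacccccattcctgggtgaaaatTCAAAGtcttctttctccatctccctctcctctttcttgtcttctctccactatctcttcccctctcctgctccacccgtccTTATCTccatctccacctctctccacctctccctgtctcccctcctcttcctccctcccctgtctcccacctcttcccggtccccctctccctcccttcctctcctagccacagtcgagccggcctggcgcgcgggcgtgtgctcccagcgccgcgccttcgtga
Fgf4, chr7:144861136-144861435: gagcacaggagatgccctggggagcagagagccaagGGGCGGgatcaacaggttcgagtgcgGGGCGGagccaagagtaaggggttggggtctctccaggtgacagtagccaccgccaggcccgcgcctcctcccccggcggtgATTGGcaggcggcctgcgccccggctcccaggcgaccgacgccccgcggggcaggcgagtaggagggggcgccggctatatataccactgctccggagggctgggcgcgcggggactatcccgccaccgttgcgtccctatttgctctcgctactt
Fgf5, chr5:98253934-98254233: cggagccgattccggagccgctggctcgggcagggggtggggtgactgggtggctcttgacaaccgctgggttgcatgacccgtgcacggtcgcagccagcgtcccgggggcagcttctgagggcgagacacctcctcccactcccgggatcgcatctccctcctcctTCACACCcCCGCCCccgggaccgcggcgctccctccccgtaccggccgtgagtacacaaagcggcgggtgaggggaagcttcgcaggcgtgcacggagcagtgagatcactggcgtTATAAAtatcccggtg
The Fgf3 window held 1 CTTTGA and 1 AGATAA, which 16.0% and 11.2% of all 32851 promoter windows also held. The Fgf4 window held 2 GGGCGG and 1 CCAAT, found in 35.7% and 37.4% of windows. The Fgf5 window held 1 TATAAA (13.6% of windows), 1 GGGCGG and 1 GGTGTGA (3.98%). No marked match overlaps another. The windows were rich in G and C, at 59.3%, 69.7% and 68.3% against a median of 52.7% over all windows. A match describes the letters only.

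The first result is the order in time. Levels are given in CPM, a gene's UMIs divided by all UMIs of the kept cells and multiplied by 1000000. All 7 chosen ligands reached 2 CPM in at least 1 library, and of the other 15 Fgf genes 1 did, Fgf13 (3.35, 4.01 and 5.57 CPM), an intracellular family member that is not secreted. All 7 ligands had their highest CPM at E7.0, and they differed in how the later libraries stood to it. Levels of different ligands are not compared, since UMI counts are not corrected for how well each transcript is captured.

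Fgf8 stood at 100.4 CPM (98.5 to 102) at E7.0, 14.998 (13.9 to 16.1) at E7.25 and 43.5 (42.2 to 44.9) in E7.5 posterior. Its lowest library was E7.25, and none of the 3 intervals overlapped. Fgf17 had the same order at much lower counts, with 355, 50 and 186 UMIs, or 3.28 (2.94 to 3.64), 1.05 (0.778 to 1.38) and 2.12 (1.82 to 2.44) CPM. Fgf5 stood at 74.6 CPM (73.0 to 76.2), then 21.4 (20.1 to 22.8) and 19.98 (19.1 to 20.9). Its later libraries overlapped, so the Fgf5 difference lay between E7.0 and both later libraries. Fgf3 was about level at first, at 66.5 (65.0 to 68.1) and 63.3 (61.1 to 65.6) CPM, and lower in E7.5 posterior, at 33.9 (32.6 to 35.1). Fgf10, a ligand best known from limb and lung buds, had few UMIs (310, 109 and 109), or 2.86 (2.55 to 3.20), 2.29 (1.88 to 2.76) and 1.24 (1.02 to 1.495) CPM. Its intervals overlapped between E7.0 and E7.25 and lay lower in E7.5 posterior, as for Fgf3.

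Fgf15 and Fgf4 varied least. Fgf15 stood at 23.4 (22.5 to 24.4), 16.0 (14.9 to 17.2) and 17.7 (16.8 to 18.6) CPM, with the later libraries overlapping. Fgf4 stood at 8.71 (8.17 to 9.29), 6.57 (5.86 to 7.33) and 8.32 (7.73 to 8.95) CPM, and its first and last libraries overlapped. The share of thinned cells with a UMI followed the same orders, except that Fgf4 stood marginally higher in E7.5 posterior than at E7.0: for Fgf8 it was 30.3%, 6.02% and 17.7%, for Fgf5 27.7%, 8.99% and 8.57%, for Fgf3 22.5%, 17.3% and 12.1%, and for Fgf4 3.56%, 2.84% and 3.63%. Before thinning, Fgf5 UMIs were in 45.5%, 13.8% and 14.9% of kept cells. Free RNA can put a UMI into a cell that does not make the gene, so shares were also read in visceral endoderm list cells, at the same 5000 UMIs: there Fgf3 was found in 1.02%, 2.64% and 0.704%, Fgf4 in 0.127%, 0.480% and 0.939% and Fgf15 in 1.27%, 1.20% and 1.17%. Fgf17 was found in 0 of 788, 0 of 833 and 0 of 426 of these cells, which by the rule of 3 counts over the number of cells allows shares of up to 0.381%, 0.360% and 0.704%. Fgf5 was found in 20.9%, 3.36% and 5.87% of these cells and Fgf8 in 15.9%, 1.32% and 6.10%. So at E7.0 and in E7.5 posterior the Fgf5 shares in visceral endoderm list cells were not far below the 27.7% and 8.57% of all cells. For Fgf8 at E7.0 the share was 15.9% against 30.3%. Whether free RNA adds to the shares of Fgf5 or Fgf8 was not tested. The extraembryonic ectoderm list had lower shares at the first 2 stages, with 1 of 55 and 0 of 223 cells for Fgf5 and 0 of 55 and 1 of 223 for Fgf8, a 0 allowing up to 5.45% and 1.35% by the same rule. In E7.5 posterior that list has only 8 cells and gives no usable background.

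**Figure D1:**
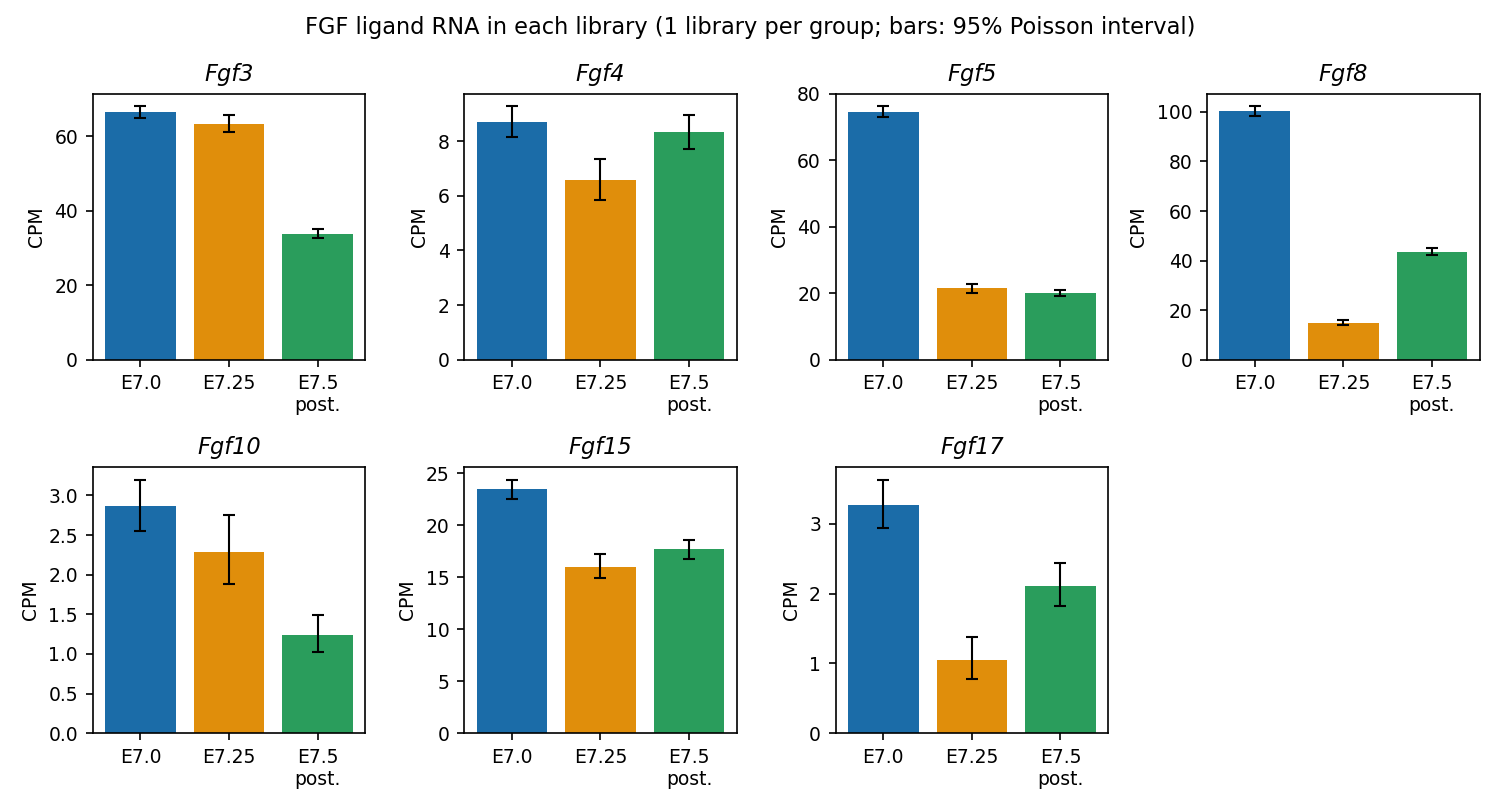
Level of each FGF ligand in CPM (vertical axis from 0) in the 3 libraries, 1 panel per ligand, with 95% Poisson intervals as bars. Fgf8 and Fgf17 were lowest at E7.25, Fgf5 was lower in both later libraries, and Fgf3 and Fgf10 were lowest in E7.5 posterior.

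As log2 ratios of CPM, 3 of the 7 ligands were at least 2-fold lower at E7.25 than at E7.0: Fgf8 by -2.74 (-2.85 to -2.63), Fgf5 by -1.80 (-1.90 to -1.71) and Fgf17 by -1.64 (-2.10 to -1.21). Among the 11355 genes at 2 CPM or more in either library, 1.66% were that much lower. Fgf17 reached 2 CPM at E7.0 but not at E7.25, so it was measured only through the library where it was high. None of the 7 was 2-fold higher, where 5.63% of genes were. The median ratio was -0.55 over the ligands and 0.18 over all genes. Trimmed-mean (TMM) scaling moves the latter to -0.02, and relative to the median gene the Fgf8 ratio was -2.93. The other ligands differed by less than 2-fold, from -0.55 for Fgf15 to -0.07 for Fgf3.

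From E7.25 to E7.5 posterior, 2 of 7 were at least 2-fold higher, Fgf8 at 1.54 (1.42 to 1.65) and Fgf17 at 1.01 (0.55 to 1.49), beside 1.27% of 11414 genes. Fgf17 reached 2 CPM in E7.5 posterior but not at E7.25, so it was measured only through the library where it was high. It sat at the limit and was below it, at 0.76 to 0.997, under 4 other ways of choosing cells. None was 2-fold lower (5.16% of genes), but Fgf3 at -0.90 and Fgf10 at -0.88 came near, and without cells of the 2 extraembryonic lists they stood at -1.13 and -1.10. Fgf5 did not differ beyond counting error (-0.10, -0.21 to 0.01). The median was 0.14 over the ligands and -0.08 over all genes.

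From E7.0 to E7.5 posterior, 3 of 7 were at least 2-fold lower (1.42% of 11181 genes) and 0 higher (1.95%): Fgf5 at -1.90 (-1.98 to -1.83), Fgf8 at -1.21 (-1.26 to -1.15) and Fgf10 at -1.21 (-1.54 to -0.89). Fgf3 stood just inside the limit at -0.98 (-1.04 to -0.91) and just past it, from -1.07 to -1.003, under 4 alternatives: 5% mitochondrial UMIs, doublets removed, extraembryonic list cells removed and TMM scaling. Fgf10 stood at -0.99 without the cells of the extraembryonic lists. It reached 2 CPM at E7.0 but not in E7.5 posterior, so it was measured only through the library where it was high. Fgf4 did not differ beyond counting error (-0.07, -0.21 to 0.07). These comparisons share libraries, so they are not independent of each other.

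Measures of the libraries also differed. Median UMIs per kept cell were 11295, 8298 and 9254.5, and median detected genes 3084, 2695 and 2763, both in the order of Fgf8 and Fgf17. The part of depth in the ligand ratios was not tested. The markers of both extraembryonic lists had another order and were highest at E7.25. The summed level of the 8 visceral endoderm markers, all detected, was 1642, 3232 and 826 CPM, and that of the 5 extraembryonic ectoderm markers, also all detected, was 10.7, 54.4 and 5.81 CPM. Without the cells of both lists, the E7.25 over E7.0 ratio was still -2.56 for Fgf8, -1.59 for Fgf5 and -1.49 for Fgf17, while Fgf3 and Fgf10 turned to 0.06 and 0.12 and were then not highest at E7.0. The ratios of all genes also differed by transcript length. Of the 1403 genes whose longest annotated transcript is under 1500 bases, 6.27% were at least 2-fold lower at E7.25 than at E7.0, against 1.90% of genes of 1500 to 3000 bases and 0.60% of genes of 3000 to 6000. In the same classes 6.41%, 5.71% and 5.41% were at least 2-fold higher. Fgf8 (1168 bases) falls in the shortest class, and Fgf17 (1689) and Fgf5 (2501) in the next. The part of length in their ratios was not tested.

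The next question was which cells hold each ligand. The 4 gate genes mark successive states. Pou3f1 encodes a POU factor of the epiblast and later of the anterior ectoderm, T (brachyury) marks the primitive streak and its progeny, Mesp1 marks mesoderm leaving the streak, and Nkx1-2 marks the caudal epiblast beside the late streak. A thinned cell was called positive when it held at least 1 UMI of the gate gene. Positive cells were 22.6%, 24.3% and 17.5% of all for Pou3f1, 25.4%, 24.5% and 37.3% for T, 45.5%, 29.9% and 37.8% for Mesp1, and 1.11%, 4.33% and 11.6% for Nkx1-2. A gene with few UMIs per cell is missed in many cells that express it, so gate-negative cells include expressing ones, and gates overlap. Pou3f1 is no clean epiblast gate, since 90.9% and 71.7% of the extraembryonic ectoderm list cells were Pou3f1-positive at E7.0 and E7.25.

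The ligands split by gate. Levels of Fgf4, Fgf15 and Fgf3 were higher in Mesp1-positive cells in every library, and those of Fgf4 and Fgf15 were at least 2-fold higher in T-positive cells as well. Fgf5 was lower in Mesp1-positive cells, and Fgf8 and Fgf17 were higher in T-positive cells. None of the ligands was 2-fold higher in Pou3f1-positive cells in any library, where 4.20%, 4.44% and 1.74% of genes were. In T-positive cells 3 of 7, 5 of 7 and 4 of 6 measured ligands were 2-fold higher (1.96%, 3.26% and 3.11% of genes). In Mesp1-positive cells 3 of 7, 4 of 6 and 4 of 7 were (3.08%, 3.06% and 2.44%). In both later libraries 1 of these 4 is Fgf10, which reached 2 CPM in the positive cells only and so had to be high there, and the other 3 are Fgf3, Fgf4 and Fgf15. Fgf17 likewise reached 2 CPM only in T-positive cells in both later libraries. In Nkx1-2-positive cells 1 of 7, 2 of 7 and 1 of 6 were, beside 11.1%, 4.21% and 1.16% of genes. Of the 2 at E7.25, Fgf17 had 3 UMIs in positive cells and reached 2 CPM there only (2.96 against 0.76 CPM). Its interval spanned 0 (-0.45 to 3.75). The E7.0 share for Nkx1-2 rests on 81 positive cells. In the other direction, 3 of 7, 2 of 6 and 2 of 6 ligands were at least 2-fold lower in Pou3f1-positive cells (6.60%, 8.05% and 5.42% of genes), Fgf3 in every library. At E7.0 and E7.25 another was Fgf10, with 2 and 4 UMIs in positive cells. It reached 2 CPM in the negative cells only. No ligand was at least 2-fold lower in T-positive cells (4.57%, 6.17% and 3.42%). In Mesp1-positive cells 1 of 7, 0 of 6 and 0 of 7 were (10.8%, 10.0% and 6.81%), the 1 being Fgf5. In Nkx1-2-positive cells 2 of 7, 1 of 7 and 1 of 6 were lower (14.4%, 10.4% and 4.43%), Fgf3 at E7.0 and in E7.5 posterior, and beside it Fgf17 at E7.0 with 0 UMIs and Fgf10 at E7.25 with 1 UMI, counts too low to show a difference. The median ratio of the measured ligands was -0.49, -0.90 and -0.77 for Pou3f1, 0.65, 1.36 and 1.51 for T, and 0.67, 1.32 and 1.28 for Mesp1.

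**Figure D2:**
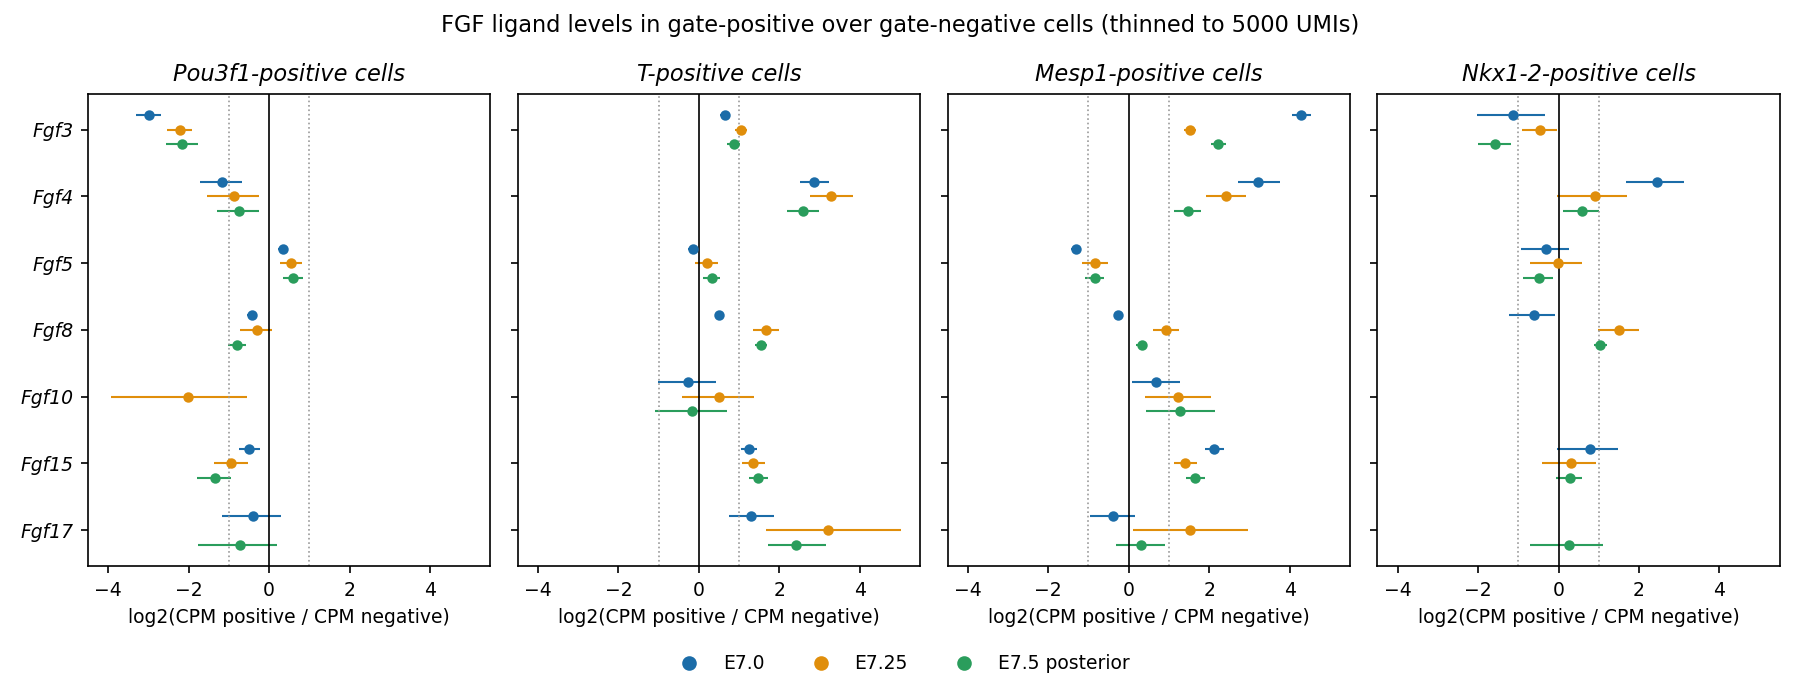
Log2 ratio of ligand CPM in gate-positive over gate-negative thinned cells, 1 panel per gate gene, coloured by library, with 95% intervals as bars and dotted lines at 2-fold. Points with 3 or fewer UMIs on either side are left out. Fgf3, Fgf4 and Fgf15 lie to the right in the Mesp1 panel, Fgf8 and Fgf17 to the right in the T panel, and Fgf5 to the left in the Mesp1 panel.

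Fgf3 was the ligand most tied to the Mesp1 gate at E7.0, by its ratio. Its level in Mesp1-positive cells was 143.9 CPM at E7.0, 115.3 at E7.25 and 66.1 in E7.5 posterior, against 7.36, 40.0 and 14.1 in negative cells. The ratios were 4.29 (4.05 to 4.54), 1.53 (1.38 to 1.68) and 2.23 (2.05 to 2.41), and Mesp1-positive cells held 94.2%, 55.2% and 74.0% of all Fgf3 UMIs. At E7.0, 46.2% of Mesp1-positive and 2.60% of Mesp1-negative cells had an Fgf3 UMI. Its T ratios were 0.65, 1.04 and 0.86. The E7.25 ratio stood between 0.54 and 0.91 under 4 alternatives, and with gates read before thinning all 3 passed 2-fold (1.13, 1.16 and 1.12). In T-positive cells without Mesp1 the level was 11.1, 68.3 and 19.9 CPM, and in cells with both genes 136, 132 and 72.9. So at E7.0 T-positive cells held Fgf3 mainly where Mesp1 was also found. In Pou3f1-positive cells the level was 10.98, 16.7 and 8.77 CPM.

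At E7.25 the Mesp1 gate held its smallest share of Fgf3, and cells with markers of other mesoderm had high levels. A cell was counted with a marker list when it held UMIs of at least 2 of its genes. Such lists overlap and are ranges, not cell types. In cells with markers of blood and endothelium (Etv2, Tal1, Lmo2, Gata1, Runx1), Fgf3 reached 192, 397 and 263 CPM in 72, 129 and 79 cells, and 54.2%, 69.0% and 57.0% of them had a UMI. Most of those at E7.25 were Mesp1-negative: these 106 cells stood at 443 CPM (389 to 504). Cells with extraembryonic mesoderm markers (Hand1, Foxf1, Tbx4, Bmp4) held 125, 151 and 70.2 CPM of Fgf3, and they made up 3.23%, 12.3% and 6.65% of cells. In the endoderm, node and anterior neural lists Fgf3 stood at 7.87 CPM or less in each library.

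Fgf4 was found where T and Mesp1 overlap. Its level was 24.1, 22.1 and 17.4 CPM in T-positive cells and 3.29, 2.26 and 2.92 in T-negative cells. The ratios were 2.87 (2.51 to 3.24), 3.29 (2.77 to 3.84) and 2.58 (2.19 to 2.98), and 71.3%, 76.0% and 78.1% of Fgf4 UMIs lay in T-positive cells. Cells with both T and Mesp1 stood at 33.6, 31.3 and 22.1 CPM, cells with T but not Mesp1 at 4.59, 11.6 and 12.5, and cells with Mesp1 but not T at 6.53, 5.07 and 5.31. The gap between T-positive cells with and without Mesp1 was therefore widest at E7.0, at a log2 ratio of -2.87 (-3.77 to -2.09), and -0.83 (-1.22 to -0.44) in E7.5 posterior. Among the lists, Fgf4 stood highest with presomitic markers (Tbx6, Msgn1, Dll1, Dll3, Hes7), at 44.2, 33.7 and 26.7 CPM. With extraembryonic mesoderm markers it had 0 UMIs in 237 cells at E7.0, which allows up to 1.27% of cells, and 3.48 and 4.31 CPM later. Within T-positive cells Fgf4 differed between successive libraries by -0.12 and then -0.35 on the log2 scale.

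Fgf15 had the same gates as Fgf4 with a wider spread. It stood at 41.1, 31.4 and 30.7 CPM in T-positive cells against 17.3, 12.3 and 10.995 in negative ones, and at 40.2, 30.1 and 31.9 in Mesp1-positive cells against 9.22, 11.3 and 10.1. The T ratios were 1.25, 1.36 and 1.48 and the Mesp1 ratios 2.12, 1.41 and 1.66, and with cells thinned to 3000 UMIs the E7.25 T ratio was 0.77. Cells with both genes stood at 55.6, 44.3 and 41.9 CPM. In Mesp1-positive cells without T, Fgf15 stood at 30.9, 19.0 and 21.7 CPM, against 3.05, 2.40 and 3.29 in visceral endoderm list cells. It was also present with extraembryonic mesoderm markers, at 29.5, 40.0 and 31.4 CPM. The antisense gene Gm26793 overlaps Fgf15 and had 2.70, 2.20 and 2.32 CPM.

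**Figure D3:**
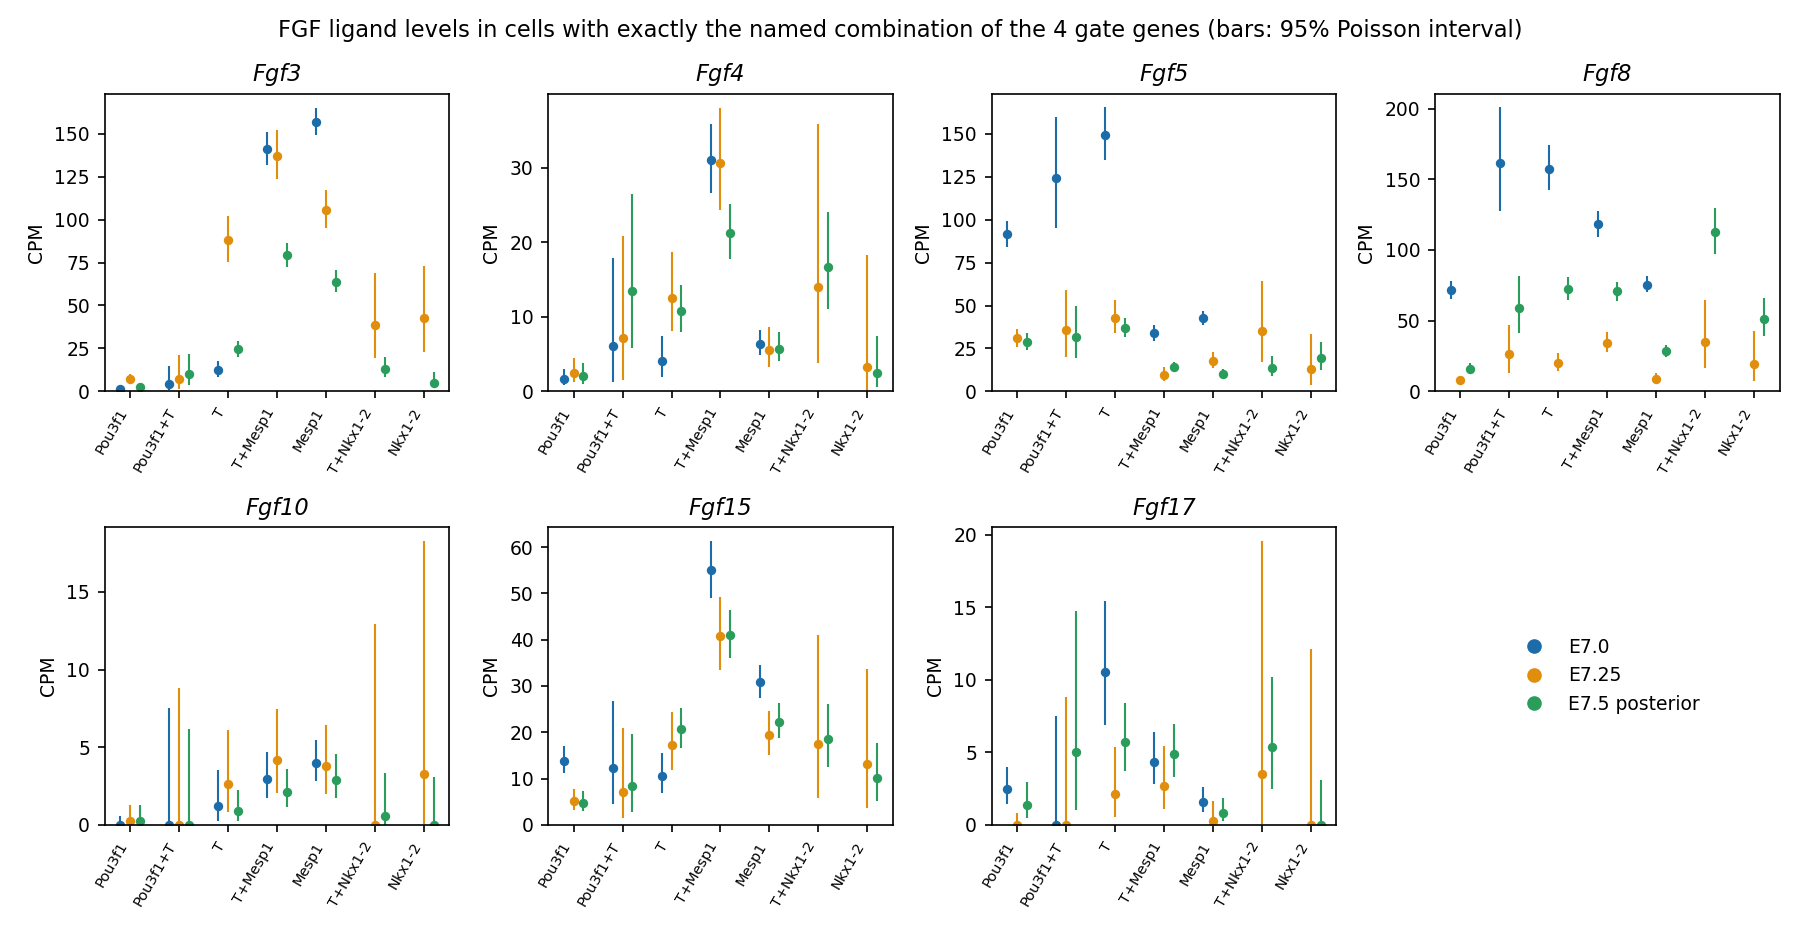
Ligand CPM (vertical axes from 0) in cells holding exactly the named combination of the 4 gate genes, coloured by library, with 95% Poisson intervals. The plot shows 7 combinations and leaves out those with under 50 cells in a library. Among those shown, Fgf4 is highest with T and Mesp1 together, Fgf3 is high with Mesp1 with or without T, Fgf5 is higher with T alone than with T and Mesp1, and in E7.5 posterior Fgf8 is highest with T and Nkx1-2.

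Fgf8 was higher in T-positive cells, by less than 2-fold at E7.0, and its other gates depended on the library. It stood at 131, 30.2 and 76.5 CPM in T-positive cells against 92.2, 9.50 and 26.2 in T-negative cells. The ratios were 0.51, 1.67 and 1.54, and T-positive cells held 32.6%, 50.7% and 63.5% of Fgf8 UMIs. At E7.0 the gene was widespread: cells with none of the 4 gate genes stood at 123 CPM, and at 9.20 and 24.5 in the later libraries. Of these cells 32.2%, 37.9% and 15.4% were in the visceral endoderm list. In Nkx1-2-positive cells Fgf8 stood at 66.7, 38.4 and 82.6 CPM against 102, 13.5 and 40.1, so it was lower than in negative cells at E7.0 (-0.62) and higher later (1.51 and 1.04). The last ratio was between 0.91 and 0.99 under some other settings. In E7.5 posterior, Nkx1-2-positive cells with T stood at 105 CPM and those without at 51.7 (log2 ratio 1.03, 0.69 to 1.38). Cells with caudal epiblast markers (Nkx1-2, Cdx1, Cdx2, Wnt8a) stood at 48.7 CPM at E7.25 and at 110 (99.5 to 121) in E7.5 posterior.

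The low E7.25 level of Fgf8 was also seen within the gates. Pou3f1-positive cells stood at 80.5, 12.3 and 28.0 CPM, T-positive cells at 131, 30.2 and 76.5, and Mesp1-positive cells at 91.7, 21.8 and 51.5. In these 3 gates the order was that of the whole libraries. In Nkx1-2-positive cells E7.25 was again lowest (66.7, 38.4 and 82.6 CPM). There E7.5 posterior did not differ from E7.0 beyond counting error (log2 ratio 0.31, -0.26 to 0.93), with 27 Fgf8 UMIs at E7.0.

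At E7.0 Fgf8 also stood high with endoderm and with anterior neural markers. These lists were not split by T or Mesp1, and whether their cells lay outside the streak was not tested. Cells with endoderm markers (Sox17, Foxa2, Cer1, Trh) stood at 206 CPM in 814 cells, 18.1 in 254 and 31.6 in 386. Those outside the visceral endoderm list stood at 226, 22.6 and 35.1 CPM, and visceral endoderm list cells without the endoderm markers at 39.1, 2.35 and 12.3. Cells with anterior neural markers (Hesx1, Six3, Otx2, Sox1) stood at 186 CPM at E7.0, 16.4 at E7.25 and 12.8 in E7.5 posterior. In that list the E7.5 posterior level was not above the E7.25 level, in contrast to the whole library, though with 6 and 5 UMIs the intervals were wide (6.03 to 35.8 and 4.16 to 29.9).

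Fgf17 was found in the same gate as Fgf8, from few UMIs. In T-positive cells it stood at 5.70, 2.62 and 5.10 CPM against 2.31, 0.28 and 0.96, with ratios of 1.31 (0.75 to 1.86), 3.21 (1.68 to 5.02) and 2.41 (1.72 to 3.16). T-positive cells held 45.7%, 75% and 76.0% of its UMIs. Mesp1-positive cells without T stood at 1.73, 0.253 and 0.839 CPM, the middle value being 1 UMI. At E7.0, 0 of 81 Nkx1-2-positive cells had an Fgf17 UMI, which allows up to 3.70%. In E7.5 posterior all 13 UMIs in Nkx1-2-positive cells lay in those that also had T.

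Fgf5 was lower in Mesp1-positive cells. Its level in Mesp1-positive cells was 42.6, 14.3 and 13.5 CPM against 104.9, 25.4 and 24.3 in negative cells, with ratios of -1.30, -0.83 and -0.85, and which of them pass 2-fold depended on the setting. The E7.0 ratio was -0.91 with gates read before thinning, the E7.25 ratio -1.14 without extraembryonic list cells and -1.03 with gates at 2 UMIs, and the E7.5 posterior ratio -1.18 with cells thinned to 3000 UMIs. T alone did not separate it (71.3, 24.4 and 23.1 CPM against 78.3, 21.3 and 18.5). Splitting T-positive cells by Mesp1 did: those without Mesp1 stood at 142.6, 40.2 and 30.6 CPM and those with it at 36.5, 10.7 and 16.0, log2 ratios of 1.97 (1.73 to 2.21), 1.90 (1.33 to 2.51) and 0.94 (0.61 to 1.28). Pou3f1-positive cells stood at 91.9, 29.0 and 28.1 CPM against 72.1, 19.8 and 18.6, ratios of 0.35, 0.55 and 0.60, which is higher in each library but less than 2-fold. The combinations did not all follow this split: cells with none of the 4 gate genes stood at 103 CPM at E7.0, above Pou3f1 alone at 91.4, and in E7.5 posterior the 87 cells with Pou3f1, T and Mesp1 stood at 52.9 (33.5 to 79.3), above T alone at 36.9. Leaving out extraembryonic ectoderm list cells, Pou3f1-positive cells stood at 94.6, 33.7 and 28.2 CPM.

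Fgf5 stood above its level in Pou3f1-positive cells with node, endoderm and anterior streak markers, in every library. With node markers (Noto, Shh, Chrd, Foxj1) Fgf5 stood at 194 CPM (164 to 227) in 154 cells, 155 (105 to 220) in 40 cells and 131 (106 to 161) in 140 cells. The endoderm list stood at 163, 82.7 and 49.7 CPM and the anterior streak list (Gsc, Foxa2, Cer1, Lhx1) at 137, 93.8 and 71.1. Endoderm list cells outside the visceral endoderm list stood at 172, 101 and 55.6 CPM, against 47.3, 6.80 and 10.5 in visceral endoderm list cells without endoderm markers. So, by the point values, Fgf5 in the node list was within 1.5 times of its E7.0 level in both later libraries. The whole-library level was more than 3 times lower. The node list intervals of E7.0 and E7.5 posterior did not overlap, and the E7.25 value rests on 40 cells. Blood and endothelium list cells stood at 22.2, 7.75 and 5.06 CPM.

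**Figure D4:**
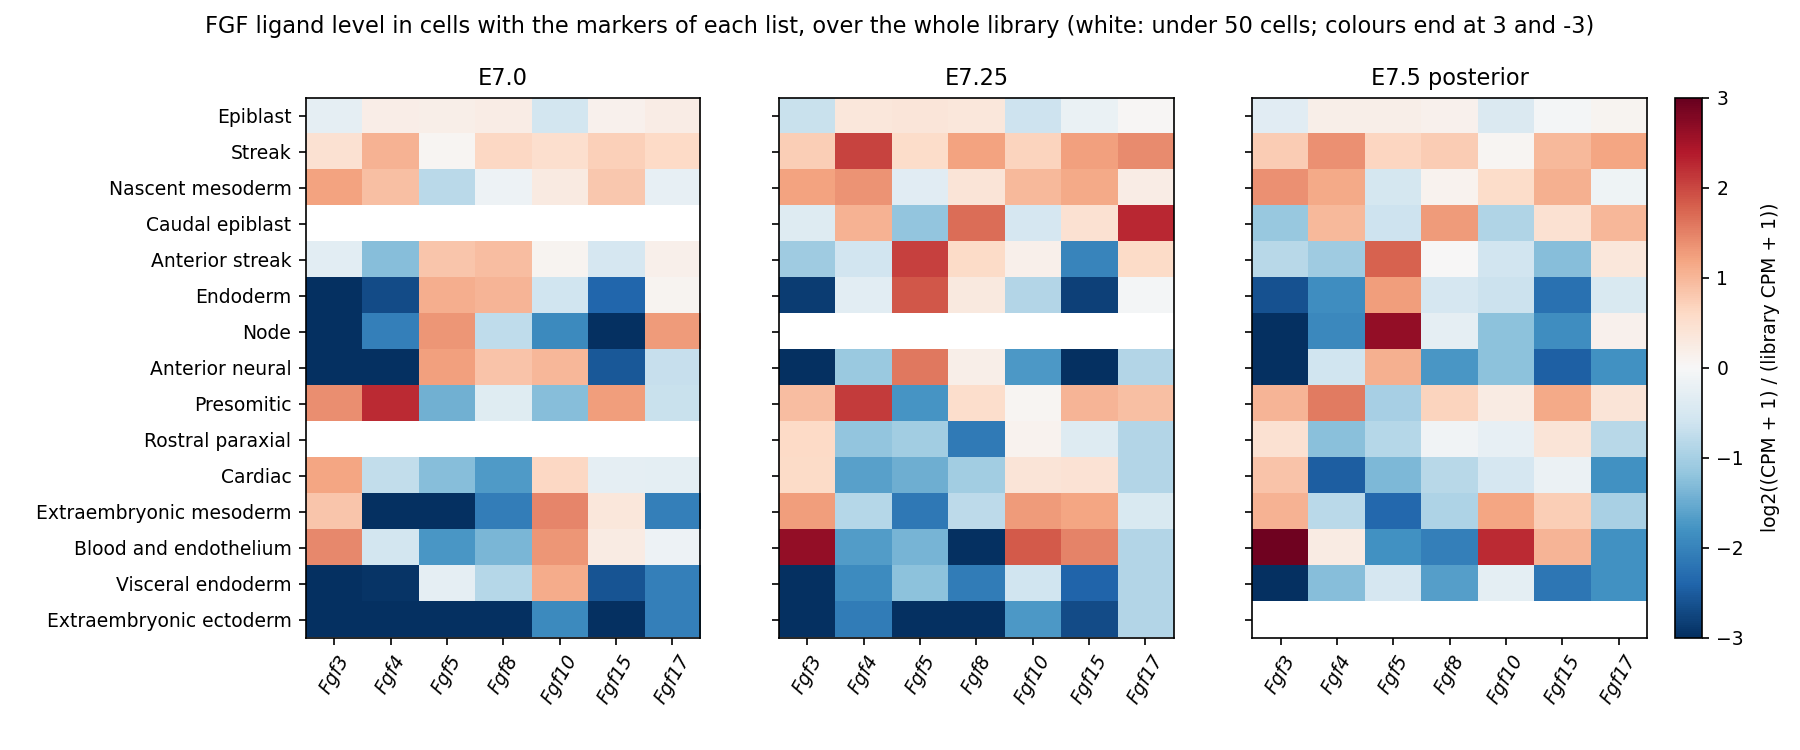
Colour gives log2 of a ligand's CPM plus 1 in cells of each marker list over the same in all thinned cells of that library, ending at 3 and -3, and white marks lists with under 50 cells. Fgf5 is high with node, endoderm and anterior streak markers, Fgf4 with presomitic markers, Fgf3 and Fgf10 with blood and endothelium markers, and Fgf8 with caudal epiblast markers in the later libraries.

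Fgf10 UMIs were rare, and 57.0%, 50% and 59.6% of them lay in Mesp1-positive cells. Those cells stood at 3.42, 3.85 and 2.14 CPM against 2.15, 1.65 and 0.88, and Pou3f1-positive cells held 2, 4 and 1 UMIs. The extraembryonic mesoderm list held 9.28, 6.96 and 4.31 CPM (11, 20 and 11 UMIs) and the blood and endothelium list 8.33, 10.9 and 10.1 CPM (3, 7 and 4 UMIs). At E7.0 the visceral endoderm list held 28 of 100 Fgf10 UMIs, at 7.11 CPM (4.72 to 10.3), against 1.20 and 0.939 CPM later. The difference between E7.0 and E7.25 within that list was larger than counting error. Antisense gene Gm16263 overlaps Fgf10, and whether the counting separated the strands is not given in the sources used here.

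Some pairs of ligands were found in the same cells more often than their shares give, and others were not. Of cells with an Fgf4 UMI, 36.0%, 24.1% and 26.3% also had an Fgf15 UMI, against 9.96%, 6.96% and 7.71% of all cells. The number of cells with both was 94, 32 and 73, which is 3.61, 3.46 and 3.41 times the product of the shares. Within cells positive for both T and Mesp1 the same ratio was 1.70, 1.77 and 2.02, lower than over all cells. Fgf3 and Fgf4 were together in 124, 54 and 83 cells (2.12, 2.34 and 2.47 times the product, and 1.13, 1.30 and 1.49 within T-positive Mesp1-positive cells). Fgf3 and Fgf5 were together in fewer cells than the product of their shares gives, at 0.44, 0.49 and 0.48 times. Fgf8 and Fgf17 were together in 61, 4 and 43 cells, or 1.81, 3.32 and 2.64 times. Within cells positive for T and Mesp1, Fgf8 and Fgf17 stood at 1.73, 1.36 and 2.08 times, from 17, 2 and 19 cells. Fgf4 and Fgf8 stood at 1.09, 2.12 and 1.48 times over all cells, and at 1.02, 1.05 and 1.02 within cells positive for T and Mesp1. Over all cells, Fgf4 and Fgf17 stood at 1.52, 3.52 and 1.498 times, from 6, 2 and 5 cells. Fgf15 and Fgf17 stood at 1.27, 0 and 1.13 times, from 14, 0 and 8 cells. Within cells positive for T and Mesp1, Fgf4 and Fgf17 were together in 2, 0 and 2 cells and Fgf15 and Fgf17 in 4, 0 and 4. Each of these was below the product, but the counts are too low to show a difference.

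No ligand was found in 35.4%, 65.8% and 60.1% of thinned cells, and 2 or more in 26.2%, 8.13% and 9.73%. The highest number in a cell was 6, 4 and 5. Sparse counts miss molecules, and free RNA or a barcode with 2 cells can add them, so these shares count UMIs found, not cells expressing.

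The genes that stood highest in cells with a ligand UMI over cells without, taking for each gene its lowest ratio over the libraries, followed the gates. For Fgf3 they were Lefty2, Mesp1, Fn1, Dlc1 and Snai1, and Lefty2, a secreted Nodal inhibitor, stood at 386, 147 and 272 CPM with Fgf3 and 71.4, 26.4 and 53.2 without. For Fgf4 the leading gene was Fgf15, at 88.9, 64.7 and 74.1 CPM with and 20.9, 15.6 and 16.2 without, followed by Lefty2, Gas1, Frzb and Snai1. Fgf15 shared Lefty2, Snai1 and Gas1 with Fgf4 and also had Mesp1 and Fgf3. For Fgf5 they were Cer1, Foxa2, Trh, Upp1 and Otx2. Cer1, a secreted antagonist made in anterior endoderm, stood at 92.4, 74.1 and 61.5 CPM with and 32.9, 18.5 and 18.3 without. For Fgf8 they were Fst, Sp5, Eomes, Grrp1 and T, with smaller gaps, as for T itself at 120, 272 and 385 CPM with and 87.1, 130 and 191 without. For Fgf10 they were Pmp22, Etv2, Kdr, Ppic and Hand1, and Etv2, a factor of blood and endothelial precursors, stood at 115, 127 and 53.8 CPM with and 24.6, 29.2 and 17.2 without. Fgf17, with at least 50 positive cells in 2 libraries only, had Apln, Fst, T, Fgf8 and Eomes.

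Patterns were also compared over 21 bins, the gate combinations with at least 100 cells in each library. The genes most alike were Tgfb1 (Pearson r = 0.953), Fn1 (0.940) and Ppfibp1 (0.924) for Fgf3, Rai14 (0.935), Dclk1 (0.922) and Gas1 (0.918) for Fgf4, and Gata4 (0.925), Tbx3 (0.877) and Tpm1 (0.869) for Fgf10. For Fgf8 they were Cenpw (0.900), Hif1a (0.886) and Bud23 (0.873). Bins of 1 library share its depth and handling, so r here describes these bins and carries no test.

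The receptors and response genes of the pathway were read from a list of 21 genes. Of 19 measured from E7.0 to E7.25, 4 were at least 2-fold higher and 0 lower: Fgfr2 (3.60 to 12.2 CPM), Fgfr3 (1.54 to 8.43), Fgfr4 (1.58 to 3.17) and Klb, a co-receptor for endocrine FGFs (1.46 to 3.44). Over all genes 5.63% were that much higher. Fgfr3, Fgfr4 and Klb were under 2 CPM at E7.0, so they were measured only through E7.25, where they were high. The visceral endoderm markers (1642 to 3232 CPM) and extraembryonic ectoderm markers (10.7 to 54.4 CPM) moved the same way, and their part in the receptor values was not tested. From E7.25 to E7.5 posterior 2 of 19 were lower, Klb (-2.57) and Fgfr4 (-1.42), beside 5.16% of all genes. Both were under 2 CPM in E7.5 posterior, so they too were measured only through E7.25. From E7.0 to E7.5 posterior 2 of 17 were higher, Fgfr2 (1.23) and Fgfr3 (1.62), beside 1.95%. Of these, Fgfr3 was measured only through E7.5 posterior. The median of the list was 0.23, -0.18 and 0.04 in these comparisons. Fgfr1, the receptor of the epiblast and mesoderm, stood at 49.7, 70.2 and 94.1 CPM. Among the response genes, Spry4 stood at 20.5, 10.8 and 10.8 CPM and Dusp6 at 31.3, 19.5 and 22.7, both lower at E7.25 than at E7.0 by less than 2-fold (-0.93 and -0.68). Etv4 (30.6, 36.0 and 26.3 CPM) and Etv5 (40.9, 47.3 and 36.4) stood highest at E7.25, the library in which Fgf8 was lowest. Their E7.25 over E7.0 ratios, 0.23 and 0.21, were however near the median of 0.18 over all genes.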

How the data were processed

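The authors deposited filtered UMI count matrices made with Cell Ranger 6.0.1, per the file headers. The genome build is not given in the sources used here. Members and gene lists were chosen with earlier results of these data known. From the deposited counts, cells were filtered by detected genes (1000) and mitochondrial UMIs (10%), and doublets were kept. Cells with 5000 UMIs were thinned to 5000 with a fixed seed for gates, lists and shares. CPM has an exact Poisson interval, a log2 CPM ratio an exact conditional binomial interval, and a share a Clopper-Pearson interval, each at 95% and for counting error only. The limit that a count of 0 allows is 3 counts over the number of cells, a rougher limit than the Clopper-Pearson bound. Ratios were taken for genes at 2 CPM or more in either group. Named genes were the 7 ligands, the 5 genes with the highest lowest ratio with a ligand over without (50 CPM or more, 5 CPM added), the 3 most alike by r, and the pathway genes past 2-fold with the main receptor and response genes. Gene IDs were matched to GENCODE M21 (32158 of 32285). Scripts used Python 3.11.15, scipy 1.17.1 and scanpy 1.11.5 (doublet scores). edgeR 4.0.16 gave TMM factors only, and no test was run. Ratios and intervals were tested on simulated data. Alternatives were other cell filters, thinning to 3000, gates at 2 UMIs or on unthinned cells, doublets removed, extraembryonic list cells removed, 20 CPM as the minimum and TMM. Splits of gates and lists, co-detection within cells positive for T and Mesp1, and length classes were added after seeing the data.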

Additional observations from a re-analysis of the deposited data

Results flagged for a closer look

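In 3 cases a ligand stood on opposite sides of 0 in 2 libraries under the same gate, with counting intervals that did not reach 0. With 1 library per group, the difference between libraries was not tested. Fgf8 in Mesp1-positive over Mesp1-negative cells had a log2 ratio of -0.27 (-0.37 to -0.18) at E7.0, 0.93 (0.61 to 1.24) at E7.25 and 0.32 (0.19 to 0.46) in E7.5 posterior. Fgf8 in Nkx1-2-positive over Nkx1-2-negative cells had -0.62 (-1.22 to -0.08) at E7.0, 1.51 (0.99 to 1.996) at E7.25 and 1.04 (0.87 to 1.21) in E7.5 posterior. Fgf5 in T-positive over T-negative cells had -0.14 (-0.26 to -0.01) at E7.0 and 0.32 (0.11 to 0.53) in E7.5 posterior.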

How the results depend on the processing

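Of 168 counts of ligands past 2-fold under the alternatives, 152 were within 1.5 times of the value reported and 16 moved, and of 780 single ratios 685 stayed within their counting interval. The alternatives were unequal in this. Gates at 2 UMIs moved 29 single ratios and kept 48, thinning to 3000 UMIs moved 21 and kept 60, and TMM moved 11 and kept 10. With gates at 2 UMIs, 63 of 77 ratios kept their side of 2-fold and 70 their sign. The count of ligands higher from E7.25 to E7.5 posterior was 1 in place of 2 with 2000 detected genes, 5% mitochondrial UMIs, doublets removed, extraembryonic list cells removed or a 20 CPM minimum. The count lower was 1 at 5% mitochondrial UMIs and 2 without extraembryonic list cells, in place of 0. For Nkx1-2 in E7.5 posterior the count was 0 in place of 1 at 5% mitochondrial UMIs, without extraembryonic list cells or when thinned to 3000 UMIs, and at E7.0 it was 2 in place of 1 with unthinned gates. At 20 CPM the Mesp1 counts at E7.25 and E7.5 posterior were 2 in place of 4, the T count in E7.5 posterior 2 in place of 4, and the Nkx1-2 count at E7.25 1 in place of 2. The T count at E7.25 was 3 in place of 5 when thinned to 3000 UMIs. The cause was not tested. With gates at 2 UMIs, Fgf8 in Pou3f1-positive cells stood at -1.09, -1.34 and -1.35. TMM turned the Fgf5 ratio from E7.25 to E7.5 posterior to 0.02. No paired analysis was possible because each group is 1 library. Depth limits Fgf10 and Fgf17 most, with 50 UMIs of Fgf17 at E7.25.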
